A study of Mus musculus with 2 samples.

Results

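The p53 and senescence-associated genes described here were 8 of the 32285 genes counted: the cyclin-dependent kinase inhibitors Cdkn1a, Cdkn2a and Cdkn2b, and the p53 targets Mdm2, Ccng1, Gdf15, Trp53inp1 and Phlda3. The list was given by gene name, with earlier results of these data known, and each of the 8 was found among the counted genes. They were followed across marker-defined cell types of the injured mouse kidney, and between injured and intact tubule.

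Both groups had 1 kidney clamped at its artery and reperfused (ischaemia-reperfusion injury, IRI), then received 4 tamoxifen injections, and were analysed on day 14. Control animals had the genotype Cre-, and whether they carried a floxed Phd3 allele was not given in the labels. Animals called haplodeficient were Cdh5-CreERT2; Phd3f/+, that is, they carried 1 floxed allele of Phd3 (Egln3, an oxygen-dependent prolyl hydroxylase) and a tamoxifen-activated Cre under control of Cdh5, which encodes the cadherin of endothelial cells. Each group was 1 kidney library from batch 1, the number and age of the animals were not stated, and no uninjured kidney was compared.

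p53 is a transcription factor that is held low by the ubiquitin ligase Mdm2, itself a p53 target, and that accumulates after DNA damage and other stress. Cdkn1a encodes p21, which halts the cell cycle by blocking cyclin-dependent kinases and is the best known p53 target, although other pathways also induce it. The Cdkn2a locus encodes p16Ink4a, an inhibitor of Cdk4 and Cdk6, and p19Arf, an inhibitor of Mdm2, and its neighbour Cdkn2b encodes p15Ink4b. High p21 and p16 mark senescent cells, and after ischaemia tubule cells that stay arrested are associated with poor repair.

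The promoters of Cdkn1a and Ccng1 are shown because, of the 7 members with an entry in the RefSeq promoter table (GRCm38.p6), these 2 held the p53 response element. The element was searched as 2 half-sites with no spacer, 20 bases in all, which reads alike on both strands, with at most 1 mismatch. The mismatch could not fall on the fixed C or G of a half-site. Each line gives a window of 300 bases, from 250 before to 50 after a RefSeq start, in the direction of the gene, with the element in capitals.
Cdkn1a promoter, chr17:29090729-29091028, plus strand: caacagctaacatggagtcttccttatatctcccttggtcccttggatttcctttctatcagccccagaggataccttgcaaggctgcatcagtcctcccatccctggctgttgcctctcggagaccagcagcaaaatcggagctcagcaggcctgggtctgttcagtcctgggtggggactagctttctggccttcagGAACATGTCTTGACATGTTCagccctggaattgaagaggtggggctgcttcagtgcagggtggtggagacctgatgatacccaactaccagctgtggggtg
Ccng1 promoter, chr11:40755237-40755536, minus strand: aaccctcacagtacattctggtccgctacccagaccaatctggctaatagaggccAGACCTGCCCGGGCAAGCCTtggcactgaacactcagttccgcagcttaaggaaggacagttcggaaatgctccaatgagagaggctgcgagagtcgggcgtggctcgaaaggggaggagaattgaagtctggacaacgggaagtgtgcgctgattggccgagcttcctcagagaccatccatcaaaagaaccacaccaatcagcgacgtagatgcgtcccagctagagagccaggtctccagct
Both elements had 1 mismatch, and they began at -51 in the Cdkn1a window and at -195 in the Ccng1 window, relative to the start. The same search matched 22 of 32851 windows in the table, 0.067%. A match describes letters in a window and not binding, and the window of another start of Cdkn1a held none. The genes lie on chr17:29090976-29100727 (Cdkn1a), chr4:89274471-89294653 (Cdkn2a), chr4:89306299-89311039 (Cdkn2b), chr10:117688875-117710758 (Mdm2), chr11:40748552-40755311 (Ccng1), chr8:70629393-70632456 (Gdf15), chr4:11156431-11174379 (Trp53inp1) and chr1:135766119-135769136 (Phlda3) in GENCODE M21 (GRCm38). Counts of the 3′ end do not separate the 2 coding transcripts of Cdkn2a, so p16Ink4a and p19Arf were not told apart.

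After filtering, 8737 control cells (107516682 unique molecular identifiers, UMIs, median 8796 per cell) and 9222 haplodeficient cells (93805552 UMIs, median 5482.5) remained. The libraries stood apart in the median mitochondrial share per cell, 10.1% against 2.69%, and in makeup: proximal tubule-like cells were 34.5% of control and 4.12% of haplodeficient cells. They shared 28 cell barcodes, 0.296% of control barcodes. Levels are in CPM, UMIs of a gene scaled to a fixed total per class. In endothelial-like cells Egln3 had 30.9 CPM (20.9 to 44.2) in control and 29.0 CPM (23.1 to 36.0) in haplodeficient cells, so the ratio was 0.939 (0.612 to 1.48). A 3′ tag may lie outside the deleted part, so this gives no check of the labels. Cell classes were named from marker lists, hence "-like", and 14 with at least 50 cells in both libraries were compared. Dividing cells (136 and 182) also reached that number, but they mix cell types and were kept apart. Every interval in parentheses is a 95% interval for counting error alone: it takes UMIs as independent, and with 1 library per group no difference has a replicate check or a test.

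Cdkn1a was lowest in proximal tubule-like cells, with 9.27 CPM (8.32 to 10.3) in control and 32.7 CPM (27.4 to 38.7) in haplodeficient cells. It was highest in neutrophil-like cells, at 897 and 1296 CPM, which is 96.7 and 39.6 times the lowest class. Next came descending thin limb-like cells, a segment of the loop of Henle in the medulla, at 844 CPM (819 to 870) and 1169 CPM (1147 to 1192). In the control the intervals of those 2 classes overlapped, and in the haplodeficient library they did not. Endothelial-like cells followed at 568 and 632 CPM, then pericyte or smooth muscle-like cells at 454 and 627 CPM. Macrophage-like cells had 452 and 418 CPM and monocyte-like cells 273 and 441 CPM, so their order differed between the libraries. Thick ascending limb-like, distal convoluted tubule-like and principal or connecting tubule-like cells lay between 138 and 306 CPM over both libraries. Injured tubule-like cells, at 65.5 and 79.3 CPM, were above intact proximal tubule but below every other tubule class. Some unnamed clusters carried each of the 12 endothelial markers, and the one led by Stmn2 and Fbln5 had 1115 and 1025 CPM. The one led by Cldn5 and Ptn had 337 and 199.8 CPM. The one led by Cldn5 and Sox17, with 34 control and 62 haplodeficient cells, had 558 and 512 CPM.

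Among the 14 classes, the other 2 inhibitors were concentrated in the thin limb. Cdkn2a had 146 UMIs (28.5 CPM, 24.1 to 33.6) in control and 643 UMIs (73.8 CPM, 68.2 to 79.8) in haplodeficient descending thin limb-like cells. Of the 14 classes, the T cell-like one was second at 15.9 CPM on 8 UMIs and 11.4 CPM on 32 UMIs. The other classes compared had at most 4.15 CPM in the control, and at most 9.19 CPM (injured tubule-like cells) in the haplodeficient library. The dividing cells kept apart had 29 UMIs (13.7 CPM, 9.16 to 19.6) in control and 59 UMIs (21.5 CPM, 16.4 to 27.7) in haplodeficient cells, which is 8.98% and 5.55% of all Cdkn2a UMIs in cells. In haplodeficient endothelial-like cells no Cdkn2a UMI was counted, for which 3 counts would be 1.05 CPM. Cdkn2b was likewise highest in descending thin limb-like cells, at 64.1 CPM (57.4 to 71.4) and 97.7 CPM (91.2 to 104). Of the 14 classes, principal or connecting tubule-like cells came next at 31.4 and 37.0 CPM. Thick ascending limb-like cells followed at 19.8 and 27.1 CPM. Proximal tubule-like cells were at 0.268 CPM on 10 UMIs and 1.70 CPM on 7 UMIs. An unnamed cluster led by Tnc, with 78 control and 252 haplodeficient cells and 5 of 14 injury markers, stood outside these classes. It had 35.9 and 68.8 CPM of Cdkn2b and 16.7 and 39.8 CPM of Cdkn2a, above the class ranked second for each gene.

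**Figure D1:**
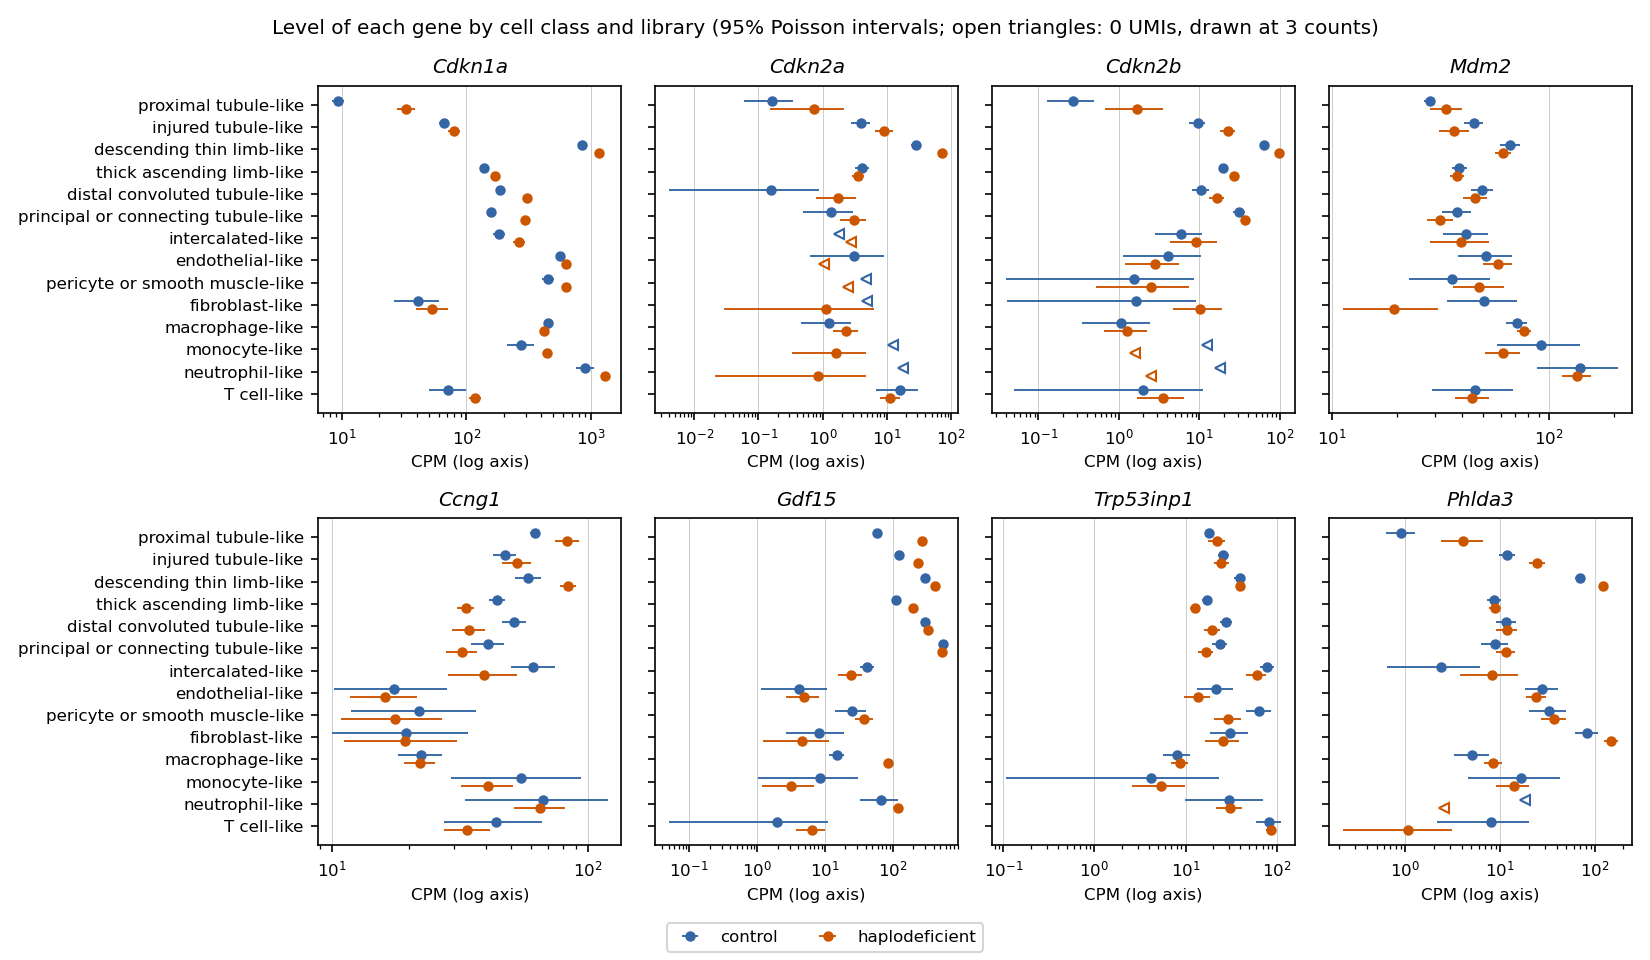
Level of each of the 8 genes (CPM, log axis, a separate range per gene) in 14 cell classes, for the control and the haplodeficient library, with 95% Poisson intervals. Cdkn1a, Cdkn2b and Phlda3 are low in proximal tubule-like cells and high in descending thin limb-like cells, while Ccng1 spans a narrow range, from 17.5 to 66.6 CPM in the control library.

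Among the p53 targets, Mdm2 and Ccng1 (cyclin G1, which recruits a phosphatase to Mdm2) differed least between classes. Mdm2 ranged from 28.2 CPM in proximal tubule-like to 139 CPM in neutrophil-like cells in the control, a 4.94-fold range. Ccng1 did not follow Cdkn1a: it was lowest in endothelial-like cells, at 17.5 and 16.1 CPM, where Cdkn1a was high. Proximal tubule-like cells, lowest for Cdkn1a, were among the highest for Ccng1 at 61.9 CPM (59.4 to 64.5) and 82.9 CPM (74.4 to 92.2). Descending thin limb-like cells, at 58.2 and 83.6 CPM, were not separated from them by counting error in either library.

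Of the 14 classes, fibroblast-like cells were highest for Phlda3, which competes with Akt at the membrane, at 82.6 CPM (61.5 to 109) and 148 CPM (124 to 176). Descending thin limb-like cells came next at 69.4 and 121 CPM. The unnamed cluster led by Tnc, outside the classes, had more Phlda3 than either, 112 and 152 CPM. Trp53inp1, a stress protein linked to p53 activation and autophagy, had its highest class values in T cell-like cells (83.4 and 86.4 CPM) and intercalated-like cells (79.0 and 60.3 CPM). Gdf15, a secreted stress hormone of the TGF-beta family, was highest in classes of the distal nephron. It stood at 554 CPM (532 to 576) and 527 CPM (509 to 545) in principal or connecting tubule-like cells. Distal convoluted tubule-like cells had 300.4 and 333 CPM and descending thin limb-like cells 295 and 422 CPM. Endothelial-like and fibroblast-like cells had at most 8.10 CPM.

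Descending thin limb-like cells thus carried a large part of several members. They were 3.63% of control and 7.08% of haplodeficient cells, and held 24.5% and 28.8% of all Cdkn1a UMIs in cells. Of Cdkn2a they held 45.2% and 60.4%, of Cdkn2b 27.0% and 35.6%, and of Phlda3 29.4% and 38.4%. By contrast, proximal tubule-like cells held 41.6% and 9.07% of Ccng1 UMIs but 1.96% and 0.382% of Cdkn1a UMIs. After thinning every cell to 1000 UMIs, 43.9% (38.3 to 49.6) of control and 52.1% (48.2 to 56.0) of haplodeficient descending thin limb-like cells had a Cdkn1a UMI. The unthinned shares were 80.8% and 87.0%. Without thinning, 17 control cells (5.36%) and 45 haplodeficient cells (6.89%) of this class had a UMI of each of the 8 members, and 28 and 33 cells had none. The class was 1 cluster, led by Slc14a2, Fst and Bst1, that carried 7 of 10 thin limb markers and also 8 of 14 injury markers. At a finer resolution it stayed in 1 piece, with 313 and 650 cells. Its summed dissociation stress genes were the highest of the tubule classes with a comparison here, 19822 and 19331 CPM, and their part in these levels was not tested.

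Injured tubule was compared with intact proximal tubule within each library. The injured class was a cluster led by Havcr1 (kidney injury molecule), with 500 control and 247 haplodeficient cells and 7 of 14 injury markers. Havcr1 was at 884 and 551 CPM there, against 26.8 and 56.2 CPM in the 3012 and 380 intact proximal tubule-like cells. In both libraries Cdkn1a, Cdkn2a, Cdkn2b and Phlda3 were higher in injured than in intact cells and Ccng1 was lower. Mdm2, Trp53inp1 and Gdf15 were higher in injured cells of the control. Of these, Mdm2 and Trp53inp1 did not differ beyond counting error in the haplodeficient library, and Gdf15 was lower in its injured cells.

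For Cdkn1a, 545 UMIs in injured and 346 in intact control cells gave 65.5 against 9.27 CPM, a ratio of 7.07 (6.16 to 8.11). Its log2 ratio on CPM + 5, 2.30, kept its sign but moved beyond the counting interval in 11 of 16 other settings, over a range of 0.29 to 2.70. In the haplodeficient library 345 and 135 UMIs gave 79.3 against 32.7 CPM, a ratio of 2.42 (1.98 to 2.98). Of those 135 UMIs in intact cells, 82 came from 5 cells. Between libraries the injured level was 1.21 times (1.05 to 1.39) the control and the intact level 3.53 times. The share of cells with a Cdkn1a UMI, thinned to 1000 UMIs, was 6.05% (4.12 to 8.52) for injured and 0.493% (0.270 to 0.826) for intact control cells. In the haplodeficient library it was 8.13% (5.04 to 12.3) and 1.67% (0.616 to 3.60). Unthinned, these shares were 33.6% and 5.81% of control cells and 38.9% and 10% of haplodeficient cells. Free RNA was estimated to give 20.2% and 18.2% of the Cdkn1a UMIs in intact cells. The direction turned in the haplodeficient library, to a log2 ratio of -1.88, when single cells of these and of unnamed tubule clusters were called injured by a thinned UMI of Havcr1 or Krt20, and was 0.19 when the unnamed clusters were left out.

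Cdkn2a rested on few cells. It had 33 UMIs in injured control cells, found in 10 of 500 cells, against 6 UMIs in intact ones, a ratio of 24.7 (10.2 to 72.0). In the haplodeficient library 40 UMIs in 19 cells stood against 3 UMIs, a ratio of 12.6 (4.02 to 63.9). For Cdkn2b 79 against 10 UMIs gave 9.50 against 0.268 CPM in the control, a ratio of 35.4 (18.3 to 76.8), and 98 against 7 UMIs gave 22.5 against 1.70 CPM, a ratio of 13.3 (6.20 to 33.9), in the haplodeficient library. Free RNA was estimated to give 75.1% of the 10 control UMIs. Phlda3 had 11.9 against 0.911 CPM among control cells (13.1-fold, 8.77 to 19.9). Among haplodeficient cells it had 24.6 against 4.12 CPM (5.97-fold, 3.56 to 10.6).

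Among the p53 targets that feed back on p53, Mdm2 was at 45.1 against 28.2 CPM in the control, a ratio of 1.60 (1.42 to 1.80), and at 36.8 against 33.7 CPM in the haplodeficient library, where the interval, 0.864 to 1.38, included 1. Ccng1 was the member lower in injured cells: 47.2 against 61.9 CPM (0.763, 0.684 to 0.849) and 52.6 against 82.9 CPM (0.635, 0.534 to 0.752). Its haplodeficient log2 ratio turned to 0.049 under the Havcr1 or Krt20 choice and to 0.0020 against late proximal tubule-like cells alone. Trp53inp1 was at 26.0 against 18.3 CPM (1.42, 1.21 to 1.66) and 24.8 against 22.1 CPM (1.12, 0.843 to 1.50). Gdf15 took opposite sides: 122 against 58.5 CPM in the control, a ratio of 2.09 (1.94 to 2.25), and 232 against 266 CPM in the haplodeficient library, a ratio of 0.869 (0.797 to 0.948). In the haplodeficient injured cells 111 of the 1008 Gdf15 UMIs came from 1 cell, and without it the ratio was 0.775 (0.709 to 0.847). The thinned share of haplodeficient cells with a Gdf15 UMI was 15.9% (11.5 to 21.0) in injured and 15.04% (11.5 to 19.2) in intact cells, from unthinned shares of 47.8% and 39.5%. In T cell-like cells, which had few Gdf15 UMIs, it was 0.716% (0.289 to 1.47), or 1.20% unthinned. Against late proximal tubule-like cells alone the haplodeficient log2 ratio of Gdf15 turned to 0.24, and under the Havcr1 or Krt20 choice the control one turned to -0.16. The median depths were 13394 UMIs in injured, 6698.5 in intact and 2547.5 in T cell-like cells.

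**Figure D2:**
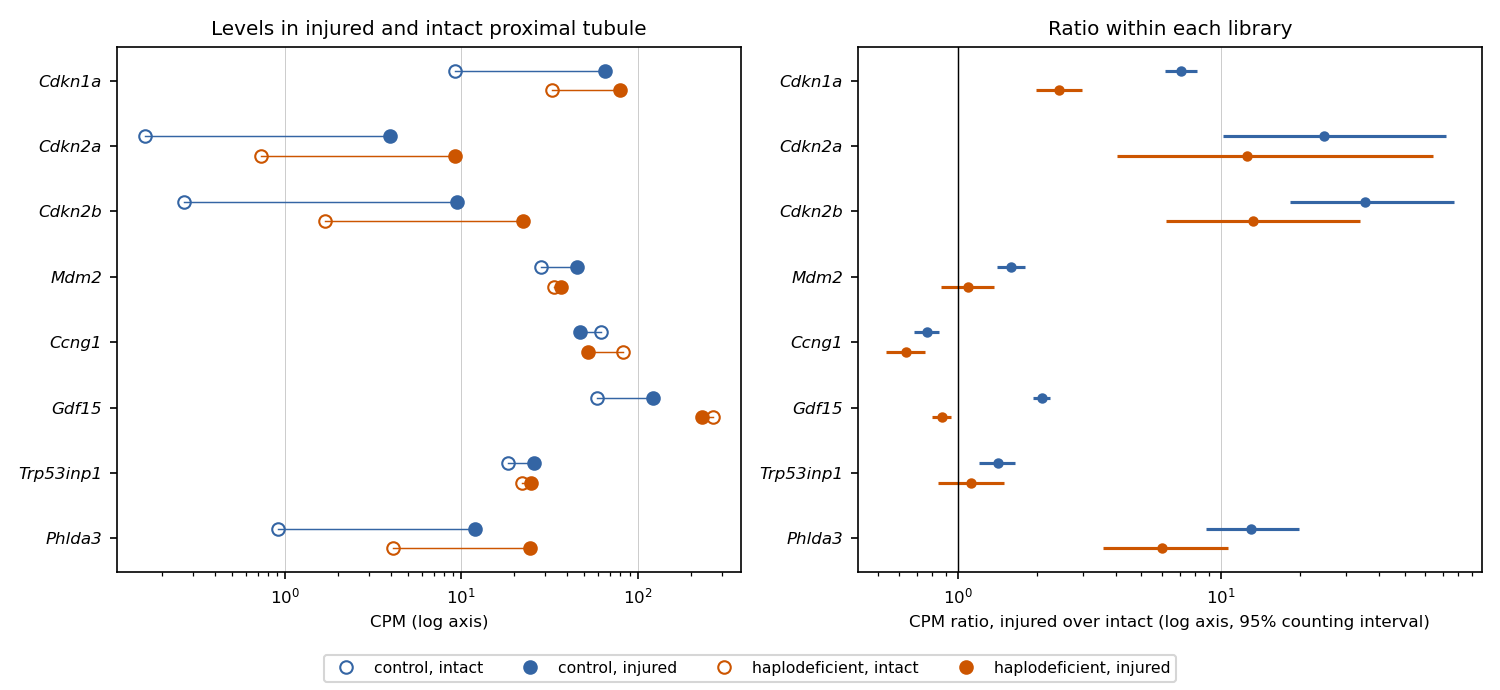
Left, level (CPM, log axis) of the 8 genes in intact proximal tubule-like cells (open circles) and injured tubule-like cells (filled circles) of each library. Right, the CPM ratio of injured over intact (log axis) with 95% counting intervals and a line at 1; Ccng1 lies below 1 in both libraries, and Gdf15 lies at 2.09 for control and 0.869 for haplodeficient cells.

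In all, the interval of the ratio lay above 1 for 7 of 8 members and below 1 for 1 in the control. Of 13600 genes with at least 30 UMIs in this comparison, 63% lay above 1 and 15.4% below. In the haplodeficient library 4 of 8 members lay above 1 and 2 below, against 37.7% and 17.5% of 11193 genes. The share of members above 1 therefore has to be read against a background in which most genes with enough UMIs were also higher in injured control cells. A stricter size rule took genes whose 2 sums averaged 50 CPM or more on 30 UMIs or more, and asked for a 2-fold difference of CPM + 5 with intervals that did not overlap. In the control 2 members were high enough to enter and 1 passed, Gdf15, while 22.2% of 3195 genes passed, 13.3% higher and 8.86% lower. In the haplodeficient library 3 entered and 1 passed, Cdkn1a, while 13.4% of 3343 genes passed, 6.25% higher and 7.18% lower. Cdkn2a, Cdkn2b, Mdm2, Trp53inp1 and Phlda3 were too low in both libraries to enter. Cdkn1a, at 65.5 against 9.27 CPM, was too low to enter in the control, where its log2 ratio was 2.30. Gdf15 passed there at a log2 ratio of 1.002, next to the cutoff of 1. The Gdf15 call was lost in 12 of 16 other settings, 9 planned and 3 added, scaling to UMIs other than mitochondrial ones among them. The Cdkn1a call was lost in 5 of 15 other settings, among them a UMI minimum of 1000 per cell and free RNA subtracted, and turned to lower in 1, the Havcr1 or Krt20 choice.

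Other values moved with the contrast. The median mitochondrial share was 22.9% and 6.99% in intact and 6.60% and 3.93% in injured cells. Scaled to UMIs of genes other than mitochondrial ones, the Cdkn1a ratio was 5.94 and 2.28, the Gdf15 ratio 1.76 and 0.819 and the Ccng1 ratio 0.642 and 0.598, so each kept its side of 1. Each of the 12 macrophage markers was detected in both classes, with a sum of 1209.9 and 1323 CPM in injured and 553 and 1033 CPM in intact cells. Macrophage-like cells had 452 and 418 CPM of Cdkn1a, and the part of such RNA in the contrast was not tested. The summed dissociation stress genes were 8810 and 7756 CPM in injured and 4656 and 8577 CPM in intact cells, and their part was not tested. The intact class drew on different clusters: its largest, led by Slc5a12, had 1144 of 3012 control and 180 of 380 haplodeficient cells.

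Within the injured cluster, Gdf15 was lower in cells in which Havcr1 or Krt20, both among the 14 injury markers, was detected. Cells with a thinned UMI of Havcr1 or Krt20 (204 control and 72 haplodeficient cells) had 98.0 and 194 CPM of Gdf15, against 219 and 431 CPM in the cells without. The ratios were 0.447 (0.256 to 0.749) and 0.451 (0.235 to 0.805). For Cdkn1a they were 0.606 (0.270 to 1.27) and 0.906 (0.290 to 2.44), intervals that included 1. Unthinned, 5 cells held 235 of 1016 control and 292 of 1008 haplodeficient Gdf15 UMIs of the cluster, and their part in the split was not tested. Among control intact proximal tubule-like cells Gdf15 went the other way, at 193 CPM in 57 cells with such a UMI against 53.5 CPM, a ratio of 3.60 (1.76 to 6.64), and the haplodeficient ratio there, 0.482 (0.0979 to 1.44) on 3 UMIs in 18 cells, included 1. In the proximal tubule cluster with injury markers the control ratio was 1.65 (0.879 to 3.03).

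Across clusters of tubule cells, Cdkn1a was higher where injury markers were higher, also outside the injured class. Over 15 control clusters of at least 50 cells, Pearson's r of log2 Cdkn1a with the summed 14 injury markers was 0.88, and over 10 haplodeficient clusters 0.81. The clusters share libraries and differ in depth, and the same r was 0.84 and 0.68 with the dissociation stress genes and -0.92 and -0.78 with the mitochondrial share, so these cannot be told apart. The marker sum also differed by segment. It was 7225 and 9091 CPM in principal or connecting tubule-like cells, above the 4395 and 4199 CPM of the injured class. Krt8, 1 of the 14, had 1052 and 1074 CPM in descending thin limb-like and 423 and 606 CPM in injured cells. Havcr1 had 103 and 63.1 CPM against 884 and 551 CPM. The part of segment in r was not tested. Ccng1 had r of -0.50 and -0.36 with the injury markers. Within the thick ascending limb, the cluster led by Egf and Umod, genes of the mature segment, had 12.0 and 27.4 CPM of Cdkn1a. The 2 other thick ascending limb clusters had 198 and 173 CPM (led by Enox1) and 75.7 and 162 CPM (led by Psca). Cdkn2b was at 10.8 and 8.55 CPM in the Egf-led cluster, and at 22.3 and 26.2 CPM and at 29.1 and 38.6 CPM in the others. In the proximal tubule, a late segment cluster that carried 6 of 14 injury markers had 190 CPM of Cdkn1a and 325 CPM of Gdf15 in 112 control cells. Its 97.1 CPM of Ccng1 was the highest of the control tubule clusters.

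**Figure D3:**
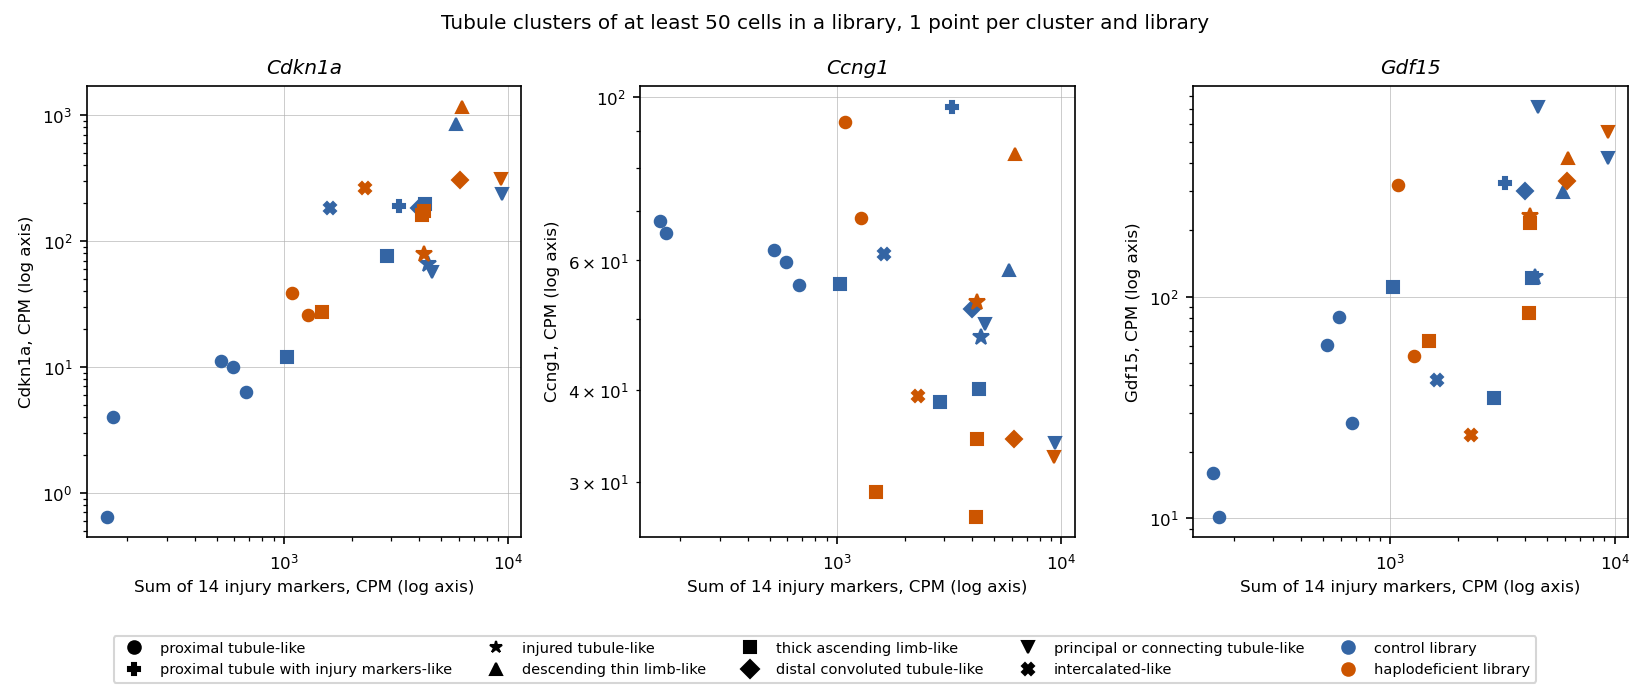
Cdkn1a, Ccng1 and Gdf15 (CPM, log axis) against the sum of 14 injury markers (CPM, log axis), 1 point per tubule cluster with at least 50 cells in a library; shapes are classes and colours are libraries. Cdkn1a is near or below 10 CPM in control proximal tubule-like clusters with few injury markers and reaches 844 CPM in the descending thin limb-like cluster, while Ccng1 shows no such rise.

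The haplodeficient and control libraries were then compared class by class, 112 pairs of a member and a class. Cdkn1a was higher in the haplodeficient library in most classes: the interval of the ratio lay above 1 in 12 of 14 classes. It included 1 in fibroblast-like cells and lay below 1 in macrophage-like cells (0.927). Within macrophage-like clusters the Cdkn1a interval included 1: 0.992 (0.925 to 1.06) in the Ccl12-led and 0.973 (0.894 to 1.06) in the Gpnmb-led one. In the Aif1-led one Cdkn1a had 82.5 CPM in control and 91.0 CPM in haplodeficient cells. Over 138818 pairs of a gene and a class with at least 30 UMIs, 18.4% lay above 1 and 14.8% below. Under the size rule 3 of the 35 member and class pairs that could enter were higher and 0 lower. For all genes 0.866% of 47324 pairs were higher and 1.19% lower. The 3 pairs were Gdf15 in macrophage-like cells, Gdf15 in proximal tubule-like cells and Cdkn2a in descending thin limb-like cells.

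Gdf15 in macrophage-like cells had 70 UMIs (14.8 CPM, 11.6 to 18.8) in the control and 807 UMIs (86.0 CPM, 80.2 to 92.2) in the haplodeficient library, a ratio of 5.79 (4.53 to 7.51). In the 2 largest macrophage-like clusters the ratios were 4.32 (2.96 to 6.49) and 5.92 (4.27 to 8.46). In proximal tubule-like cells Gdf15 went from 58.5 CPM in control to 266 CPM in haplodeficient cells, 4.55 times (4.23 to 4.90). It was 5.27 (4.83 to 5.74) in the Slc5a12-led cluster and 2.94 (2.41 to 3.56) in the Slc7a13-led one. In the other 3 clusters of the class the interval included 1: 2.01 (0.988 to 4.11) in the AY036118-led one, with 124 of the 380 haplodeficient cells, 2.44 (0.856 to 5.70) with 28 and 0.852 (0.0208 to 5.15) with 9 such cells. Gdf15 was lower in the haplodeficient library in intercalated-like cells, at 23.7 against 42.2 CPM, a ratio of 0.563 (0.345 to 0.893).

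For Cdkn1a the ratio was largest in proximal tubule-like cells, 3.53, and 3.50 (2.77 to 4.41) within their Slc5a12-led cluster. That cluster had 11.1 CPM in control and 38.7 CPM in haplodeficient cells. In the Slc7a13-led cluster, with 39 haplodeficient cells, the ratio was 1.56 (0.658 to 3.18). Of the 135 haplodeficient UMIs of the class 82 came from 5 cells, 31 of them from 1 cell, against 79 of 346 from 5 control cells. The thinned shares of intact cells with a Cdkn1a UMI, given above, had intervals that overlapped between the libraries. Several class ratios mixed unlike clusters. In principal or connecting tubule-like cells the ratio was 1.87 (1.71 to 2.04) for the class and 1.31 (1.20 to 1.44) in its larger cluster. The thick ascending limb ratio of 1.22 combined 0.876 (0.828 to 0.926) in the Enox1-led cluster with 2.14 (1.72 to 2.69) in the Psca-led and 2.28 (1.21 to 4.06) in the Egf-led cluster. In endothelial-like cells, the class in which Cdh5 drives Cre, Cdkn1a had 568 CPM in control and 632 CPM in haplodeficient cells, 1.11 times (1.01 to 1.23). The larger endothelial-like cluster alone gave 1.85 (1.49 to 2.32). Of the unnamed clusters with endothelial markers, which the class leaves out, the Stmn2-led one had 0.920 (0.846 to 1.000). The one led by Cldn5 and Ptn had 0.593 (0.488 to 0.720). The one led by Cldn5 and Sox17 had Cdkn1a at 558 CPM in 34 control and 512 CPM in 62 haplodeficient cells. No single direction thus held across endothelial cells.

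In descending thin limb-like cells, a single cluster in both libraries, 6 of the 8 members had an interval of the ratio above 1 and 0 below. Of 12683 genes with at least 30 UMIs in this class, 17.4% lay above 1 and 22.9% below. Cdkn2a was at 2.59 times (2.16 to 3.12), Phlda3 at 1.74 times (1.54 to 1.97), Cdkn2b at 1.52 times (1.34 to 1.74), Ccng1 and Gdf15 both at 1.43 times and Cdkn1a at 1.39 times (1.34 to 1.44). Mdm2, at 0.930 (0.811 to 1.07), and Trp53inp1, at 1.01 (0.842 to 1.20), had intervals that included 1. Such rises were not confined to this class. In injured tubule-like cells Cdkn2b was at 2.37 times (1.74 to 3.23), Cdkn2a at 2.32 times (1.42 to 3.79) and Phlda3 at 2.07 times (1.56 to 2.74). Gdf15 there was at 1.90 times (1.74 to 2.07), while Mdm2 was lower, at 0.815 (0.673 to 0.984). In proximal tubule-like cells Cdkn1a, Cdkn2b, Ccng1, Gdf15 and Phlda3 had intervals above 1. Over the 14 classes, Ccng1 was below 1 in 4 and above 1 in 2, the descending thin limb-like and proximal tubule-like ones, and Trp53inp1 was below 1 in 4 and above 1 in 0. Mdm2 was below 1 in 2 classes and above 1 in 0.

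**Figure D4:**
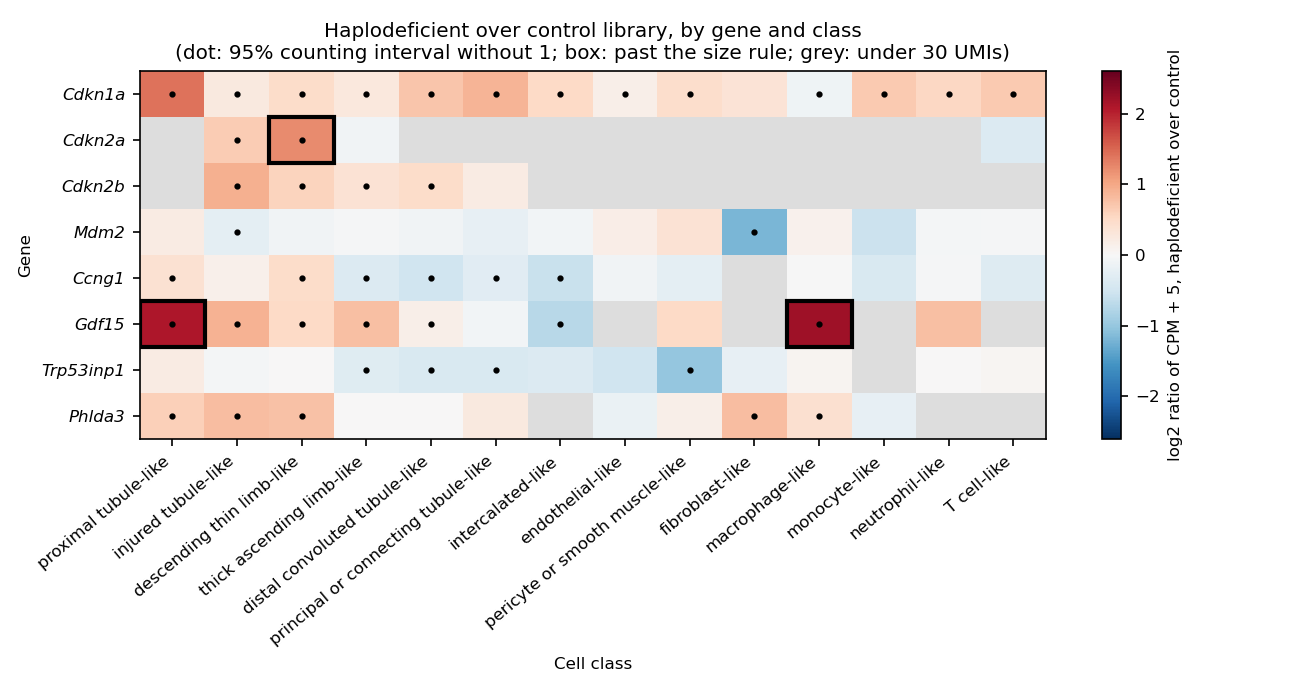
Log2 ratio of CPM + 5, haplodeficient over control, for the 8 genes (rows) in 14 cell classes (columns), from blue (lower) to red (higher); a dot marks a 95% counting interval of the CPM ratio without 1, a box a pair past the size rule, and grey a pair with under 30 UMIs. The 3 boxes are Cdkn2a in descending thin limb-like cells and Gdf15 in proximal tubule-like and macrophage-like cells.

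The dissociation stress genes differed between libraries as well. Their median log2 ratio was 0.66 in proximal tubule-like, 0.57 in T cell-like, -0.05 in macrophage-like and -0.18 in descending thin limb-like cells. The medians over all genes that could enter were 0.20, -0.04, -0.01 and -0.02 in the same classes. Over the 14 classes the stress median ran from -0.28 in injured tubule-like to 0.66 in proximal tubule-like cells. The median mitochondrial share was lower in the haplodeficient library in each of the 14 classes. The part of the stress genes and of the mitochondrial share in the differences was not tested. With 1 library per group, genotype, animal and preparation cannot be told apart.

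The wider pathway was read in the same comparison of injured with intact cells. Trp53 itself was at 64.3 against 21.7 CPM in the control, a ratio of 2.97 (2.65 to 3.31), and at 62.3 against 31.8 CPM in the haplodeficient library, a ratio of 1.96 (1.59 to 2.43). Mdm4, the partner of Mdm2, was at 38.0 against 24.2 and 32.9 against 29.1 CPM. Of 34 p53 regulators and targets other than the members, 5 were high enough to enter in each library: 3 were higher and 1 lower in the control, 0 higher and 1 lower in the haplodeficient library. Of all genes that entered, 13.3% were higher and 8.86% lower in the control, and 6.25% and 7.18% in the haplodeficient library. The median log2 ratios of the list were 1.06 and 0.04, beside 0.30 and 0.09 over all genes that entered. The gene lower in both was Dcxr, a sugar reductase of intact proximal tubule, at 46.8 against 253 and 53.1 against 173 CPM.

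Among 17 cyclins, kinases and related inhibitors, Cdk6, a kinase that p16 and p15 bind, was higher in injured cells, at 191 against 41.9 and 174 against 60.6 CPM. Cdk4, its close relative, was at 115 against 42.0 CPM in the control, past the size rule, and at 153 against 84.8 CPM in the haplodeficient library, short of it. Cyclin D1 (Ccnd1) was at 145 against 188 and 159 against 273 CPM, short of the rule. None of the 16 cell division genes was high enough to enter in either library; their summed level was 91.3 and 131 CPM in injured and 53.3 and 76.4 CPM in intact cells.

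Of 28 genes of the senescence-associated secretory and surface list, 10 entered in the control, with 6 higher and 1 lower, and 11 in the haplodeficient library, with 5 higher and 1 lower. Over all genes that entered, 13.3% were higher and 8.86% lower in the control, and 6.25% and 7.18% in the haplodeficient library. The medians of the list were 1.21 and 0.80, beside the 0.30 and 0.09 above. The chemokine Ccl2 led, at 382 against 2.20 CPM and 685 against 13.6 CPM. Cxcl2 was at 248 against 20.6 and 374 against 40.2 CPM, Cxcl1 at 297 against 125 and 420.0 against 177 CPM, and Igfbp7, a secreted binding protein, at 3047 against 1317 and 4306 against 2037 CPM. Vegfa was the member of that list lower in both, at 34.1 against 73.5 and 38.6 against 87.0 CPM. Ccl2, Cxcl2 and Cxcl1 are also made by leukocytes, whose markers were present in these cells as given above. Of 15 integrated stress response genes, which include inducers of Gdf15, 6 and 7 entered. In each library 2 were higher and 1 lower, and the medians were 0.16 and 0.02. The shares and medians over all genes are those just given. Atf3 was the one named, at 593 against 83.4 and 723 against 266 CPM, and it is also among the dissociation stress genes.

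The genes most like each member over 28 sums of a class and a library, among 8451 genes, were ranked by Pearson's r of log2(CPM + 5), as a description. For Cdkn1a they were Flii (0.86), Cdk9 (0.85) and Sde2 (0.81), and for Mdm2 Fem1c, Mcl1 and Kpna4 (0.87 to 0.88). Cdkn2b had the closest, Ppl (0.93), Scx (0.90) and Sh2d4a (0.89), and Cdkn2a had Cntf (0.85), Clca3b (0.79) and Slc4a11 (0.78), of which Cntf and Slc4a11 were leading genes of the descending thin limb-like cluster. Phlda3 was most like Lhfp, Tenm3 and Gli3 (0.86 to 0.88), Gdf15 like Kcnj16, Veph1 and Fermt1 (0.84 to 0.85), Ccng1 like Tuba4a (0.87), Retreg1 (0.81) and Sephs2 (0.79), and Trp53inp1 like Lrig1, Tnrc6b and B4galt1 (0.75 to 0.78). Between members r was 0.67 for Cdkn1a and Mdm2, 0.65 for Cdkn2a and Cdkn2b and 0.66 for Cdkn2b and Gdf15. It was -0.09 for Cdkn1a and Ccng1.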

How the data were processed

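Droplet 3′-end RNA was measured in 2 libraries, 1 per group. The authors deposited raw counts of UMIs per gene and barcode, which the file headers give as output of Cell Ranger 4, on mm10, per the submitters' processing notes. The strand setting was not given in the sources used here, and an antisense model over Cdkn1a was not among the counted genes. Of 32285 gene IDs, 32158 (99.6%) matched GENCODE M21.

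Cells were barcodes of 500 UMIs and 200 genes or more, with no more than 50% of UMIs mitochondrial. The highest Scrublet scores (scanpy 1.11.5), 7.56% and 8.02% of barcodes, were removed as likely doublets. Both libraries were clustered together without the 8 members (2000 variable genes, 30 components, 15 neighbours, Leiden resolution 1, leidenalg 0.10.2). A class name needed 3 or more listed markers, in at least 10% of the cells of a cluster and each 2-fold or more above the remaining cells. Clusters stayed unnamed, 11.7% and 13.9% of cells, where markers or the 10 leading genes supported another class as much. These details were set after the clusters were seen.

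UMIs were summed per class and library. Intervals are exact Poisson (levels), conditional binomial (ratios) and Clopper-Pearson (shares; scipy 1.17.1). Log2 ratios are of CPM + 5, which understates low genes. Free RNA was profiled in barcodes of up to 100 UMIs. The size rule was run on simulated Poisson sums with known changes. These held no variation between cells or libraries, so they cannot show how the rule fares under it. Members and lists were chosen with earlier results of these data known. Other genes were named where past the size rule in both libraries in the same direction, at most 5 per direction and list, plus Trp53, Mdm4, Cdk4, Cdk6 and Ccnd1, and like genes as the 3 with the highest r. Of 16 other settings tried, 4 were chosen after seeing the data.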

Additional observations from a re-analysis of the deposited data

Results flagged for a closer look

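Gdf15 stood on opposite sides of 1 in the ratio of injured tubule-like over intact proximal tubule-like cells, with 2.09 for control and 0.869 for haplodeficient cells, and the difference between the libraries was not tested. Cdkn1a was 3.53 times its control level in haplodeficient proximal tubule-like cells but 0.927 times in macrophage-like cells. In the Ccl12-led and Gpnmb-led macrophage-like clusters the Cdkn1a ratio was 0.992 and 0.973, with intervals that included 1. In the proximal tubule-like cells 82 of the 135 haplodeficient UMIs came from 5 cells. Ccng1 was at 1.43 times in descending thin limb-like and 0.642 times in intercalated-like cells. Gdf15 was at 5.79 times in macrophage-like and 0.563 times in intercalated-like cells. The class ratios were picked because the counting intervals of the same contrast lay on opposite sides of 1. This was in 2 libraries for the first and in 2 classes for the others. The differences between classes were not tested.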

How the results depend on the processing

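No paired analysis was possible because each group was 1 library. Cdkn2a, Cdkn2b and Phlda3 had at most 34 UMIs in intact cells, so their ratios have wide counting intervals, and free RNA, doublets and the choice of clusters enter each value. The 1 member past the size rule in the control comparison of injured with intact cells (Gdf15) became 0 under median-of-ratios size factors, a mitochondrial limit of 25%, a UMI minimum of 1000, likely doublets kept, Leiden resolution 2, each library clustered on its own, members allowed among variable genes, late proximal tubule alone as intact, and injured cells chosen by a thinned UMI of Havcr1 or Krt20. It also became 0 under 3 settings chosen after seeing the data: that choice without unnamed clusters, scaling to UMIs of genes other than mitochondrial ones, and the largest early proximal tubule cluster as intact. It became 2 with a mean of 10 CPM and no minimum of UMIs. The 1 haplodeficient member (Cdkn1a) became 0 with expected free RNA subtracted, a UMI minimum of 1000, late proximal tubule as intact, and the added settings of Havcr1 or Krt20 without unnamed clusters and of the largest early cluster. It became 2 under the planned Havcr1 or Krt20 choice, both lower in injured cells (Cdkn1a at -1.88 and Gdf15 at -1.49), and 3 at a mean of 10 CPM, all higher. The 3 pairs past the rule between libraries became 6 at a mean of 10 CPM, 5 at a UMI minimum of 1000 and 5 with each library clustered on its own, which gave no injured class in the haplodeficient library and so no value there.

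The log2 ratio of injured over intact cells changed sign when injured cells were chosen by Havcr1 or Krt20, which draws in unnamed tubule clusters: Gdf15 -0.16 and Trp53inp1 -0.092 in the control, Cdkn1a -1.88 and Ccng1 0.049 in the haplodeficient library. Without unnamed clusters Cdkn2a was at -0.065 in the haplodeficient library. With late proximal tubule as intact, haplodeficient Ccng1 was at 0.0020 and Gdf15 at 0.24. The causes were not tested. Over the settings run, log2 Cdkn1a ranged from 0.29 to 2.70 in the control and from -1.88 to 2.25 in the haplodeficient library, Cdkn2b from 0.12 to 3.05 and 0.098 to 3.12, and Phlda3 from 0.45 to 2.76 and 0.31 to 2.57.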
